A study of Mus musculus with 9 samples.

Results

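The 47 mitosis and spindle checkpoint genes described here were chosen by name, as genes that carry a cell from entry into mitosis to its final division. The choice of these genes, and of the other gene lists below, was made with earlier results of these data known. They were read from a table of 18049 genes, and all 47 are in it. Bulk RNA-sequencing had been performed on 9 clones of primary tumor cells (MPC), kept in culture. The clones came from WTg mice (EL1-Luc/EL1-Tag x CAG-Mettl3), so every clone carries all of these transgenes. In these mice the Elastase I promoter, active in pancreatic acinar cells, drives luciferase and the large T antigen of SV40, and the ubiquitously active CAG promoter drives an open reading frame of Mettl3. Large T antigen is known to inactivate the retinoblastoma proteins and p53, so it acts on cell division wherever it is made. Attached tumor cells were passaged and colonies were then isolated with cloning cylinders, and the number of mice or tumors behind the 9 clones is not given in the sources used here. The labels call the cells fibroblasts and give the treatment as none, whereas a protocol field of the same labels names 80 nM NMS-P937, an inhibitor of PLK1, for 24 h. The study's methods describe no drug for these clones. No clone without the Mettl3 transgene was analysed here, so the members are described by how they vary among the clones.

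Mitosis is run by kinases that are switched on and off in order. CDK1 with its cyclin B partner starts it, the Polo-like and Aurora kinases build the spindle, and the spindle checkpoint holds the chromosomes until every kinetochore is attached. The anaphase-promoting complex with CDC20 then marks cyclin B and securin for destruction, the cohesin rings are cut, and the cell is pinched apart. The RNAs of many of these genes are made late in the cell cycle, under FOXM1, B-MYB and the MuvB complex. A pair of promoter elements is known for such control: the CHR, searched for here by the letters TTTGAA alone, and the CCAAT box.

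Promoter sequence was available from RefSeq (GRCm38.p6) for 39 of the 47 genes, as 250 bases before and 50 bases after each annotated start. Aurkb, Ccna2, Cdc25c, Foxm1, Incenp, Kif20a, Lmnb1 and Tpx2 had no entry. The letters TTTGAA stood on either strand in 27 of the 39 windows (69.2%), compared with 20.2% of the windows of 27025 genes. CCAAT was found in 27 of 39 (69.2%), compared with 41.1% of all genes, and both motifs stood together in 23 (59.0%), compared with 8.97%. By their letters, a match to TTTGAA and a match to CCAAT can share no more than a base at an end. TTTGAA lay between 40 bases before and 50 bases after the start in 25 members, a position that held it in 5.10% of all genes. A match to these letters is a description of the sequence and does not show that a factor binds there. The lack of a match does not show that a CHR is missing, because no other letters were searched for it.

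The 120 bases before the start are shown for genes that hold both motifs in that stretch and that stand for different steps of mitosis, with the motifs TTTGAA (or TTCAAA, its reverse complement) and CCAAT (or ATTGG) in capitals. Cdk1 is at chr10:69352913-69353032 (minus strand), Cdc20 at chr4:118437344-118437463 (minus), Top2a at chr11:99024190-99024309 (minus), Ube2c at chr2:164769809-164769928 (plus), Kif11 at chr19:37376262-37376381 (plus) and Espl1 at chr15:102296173-102296292 (plus).
Cdk1: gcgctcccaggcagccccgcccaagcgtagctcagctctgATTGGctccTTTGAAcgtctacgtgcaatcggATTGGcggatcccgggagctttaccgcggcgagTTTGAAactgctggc
Cdc20: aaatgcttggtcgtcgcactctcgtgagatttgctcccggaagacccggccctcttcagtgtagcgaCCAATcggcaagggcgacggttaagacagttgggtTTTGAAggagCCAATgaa
Top2a: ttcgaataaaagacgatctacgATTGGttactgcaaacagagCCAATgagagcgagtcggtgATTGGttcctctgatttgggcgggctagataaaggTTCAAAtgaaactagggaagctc
Ube2c: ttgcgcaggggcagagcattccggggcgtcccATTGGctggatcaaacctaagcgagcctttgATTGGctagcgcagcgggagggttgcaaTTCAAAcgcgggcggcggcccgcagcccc
Kif11: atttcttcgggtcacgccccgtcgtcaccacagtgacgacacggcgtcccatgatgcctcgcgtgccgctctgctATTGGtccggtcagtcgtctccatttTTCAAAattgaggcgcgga
Espl1: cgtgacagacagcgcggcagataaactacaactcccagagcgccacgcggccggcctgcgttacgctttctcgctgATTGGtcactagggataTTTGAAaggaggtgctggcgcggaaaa
In Cdc20 the TTTGAA began 18 bases before the start and the nearer CCAAT began 8 bases before it. In Cdk1 the letters TTTGAA occurred at 71 and again at 15 bases before the start, and in Top2a at 179 and 23, the farther of which lies outside the stretch shown. The distances in Ube2c, Kif11 and Espl1 were 29, 19 and 27 bases.

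The next sequences are shown because these genes differ from the layout of the examples above. Those examples were chosen to hold both motifs before the start, and most members did not. In the 150 bases before the start, TTTGAA stood in 11 of 39 members and both motifs in 9. In the whole window, TTTGAA stood in 27 and both motifs in 23. The TTTGAA of Aurka, Cenpa and Hmmr, like that of Plk1, began after the start, at 33, 17 and 9 bases. Plk1 (chr7:122159315-122159434, plus strand) has a CCAAT 14 bases before the start, and its TTTGAA begins 31 bases after the start, in the 30 bases at chr7:122159453-122159482. Ccnb1 (chr13:100786487-100786606, minus) has CCAAT at 99 and 67 bases before the start and no TTTGAA in its window. Pttg1 (chr11:43425982-43426101, minus), whose level is described last, has neither motif.
Plk1, before the start: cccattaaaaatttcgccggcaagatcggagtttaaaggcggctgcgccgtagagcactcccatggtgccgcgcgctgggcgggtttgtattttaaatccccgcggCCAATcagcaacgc
Plk1, after the start: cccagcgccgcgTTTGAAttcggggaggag
Ccnb1: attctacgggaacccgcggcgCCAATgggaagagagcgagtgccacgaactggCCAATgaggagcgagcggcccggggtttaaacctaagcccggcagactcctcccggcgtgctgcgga
Pttg1: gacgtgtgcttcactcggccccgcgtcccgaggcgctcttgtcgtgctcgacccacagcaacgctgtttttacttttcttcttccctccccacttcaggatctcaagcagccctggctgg
The other members with neither motif in the whole window were Birc5, Kif18a, Mad2l1, Mybl2, Nuf2, Nusap1 and Plk4, so 8 of 39 members lacked both.

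Levels are given in normalized counts, which are read counts multiplied by the scaling factor that the authors used for each library. Between 12198036 and 20453901 reads were counted on genes per library, and 3 reads, taken as the smallest level that can be told from 0, correspond to 3.79 to 6.56 normalized counts. The smallest count of any member in any library was 43 reads (Kif18a and Cdc25c), so every member was above this floor everywhere, and all 47 passed the filter of a mean of 50 normalized counts that left 12301 genes for the tests. The column names of the table begin with 3 different prefixes, called A here (1 library, A1), B (B1 to B4) and C (C1 to C4). The prefixes are not groups of the labels, and the numbers only name the libraries. Xist was at 29664 to 32912 normalized counts in the prefix B libraries and at 8.39 or less in the others. A difference between prefix B and the other libraries can therefore not be told apart from a difference by Xist. The p-values below measure the spread between these 9 cultures and take them as independent, which was not tested. By their read counts, each prefix B library was closer to the other prefix B libraries than to any library of another prefix. Taking the 9 as independent may therefore overstate the evidence. In bulk RNA, fewer dividing cells and less mitotic RNA per cell cannot be told apart. Gene lengths were not used, so levels are compared between libraries and not between genes.

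The labelled cell type was read against marker genes. The 14 fibroblast markers summed to between 372684 (B3) and 1.04389e+06 (C2) normalized counts per library, and the 16 macrophage markers to between 557708 (C2) and 876891 (C4), so RNA of macrophage genes was high in cells labelled as fibroblasts. Lyz2 alone gave 287615 (C3) to 577311 (C4) of that sum. The epithelial markers summed to at most 540.1 and Epcam, the defining epithelial marker, was at 0 in every library. The 6 acinar markers ranged from 144 (A1) to 2415 (C3).

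The members rose and fell together from clone to clone. In C2, 46 of the 47 had their highest level, and 14.9% of all 12301 genes did. B1 held the lowest level of 39 members, compared with 12.7% of all genes. The summed level of the members was 18501 normalized counts in B1 and 60023 in C2, which is 0.0722% and 0.233% of all normalized counts in those libraries. The median ratio of C2 to B1 was 3.43 over the members and 0.983 over all genes. The remaining libraries lay between, in the order B4 (21111), B3 (23478), C4 (26333), B2 (31913), C3 (35231), C1 (36628) and A1 (41536). The member with the median spread had an SD of 0.56 on the log2 scale over the 9 libraries, compared with 0.21 for the median gene, and 46 of 47 members varied more than the median gene.

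**Figure D1:**
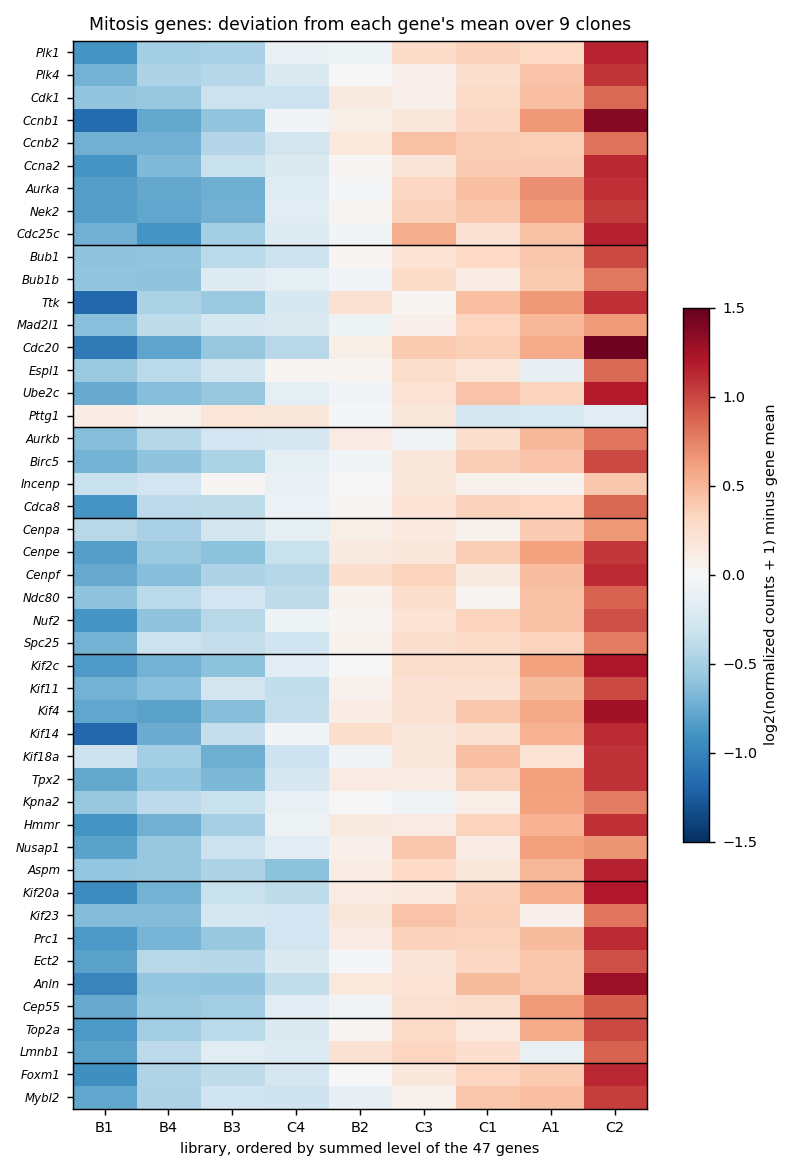
Each row is a gene, grouped by role with black lines between the groups, and each column a library, ordered by the summed level of the 47 genes. Color gives log2(normalized counts + 1) minus the mean of that gene over the 9 libraries. Nearly every row runs from blue in B1 to red in C2, where the median deviations were -0.77 and 1.03, and the row of Pttg1 does not.

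Plk1 (ENSMUSG00000030867), the Polo-like kinase that acts in centrosome maturation, kinetochore attachment and cytokinesis, was at 601 ± 276 normalized counts (SD, n = 9). It was at 685 in A1, at 299, 525, 396 and 389.9 in B1 to B4, and at 705, 1228, 669 and 512 in C1 to C4. C2 was 4.11 times B1, and the gap from C2 to C1, the next highest, was larger than the range of the 3 other prefix C libraries. Because the study is about Plk1, each gene was fitted against it across the 9 libraries. The slope gives the change of a gene in log2 units per log2 unit of Plk1, so that a gene with a slope of 1 doubles where Plk1 doubles. Of 12300 genes tested, 706 rose with Plk1 (5.74%) and 809 fell (6.58%) at an adjusted p under 0.05 (limma, Benjamini-Hochberg over all genes tested). Of the 46 other members, 45 rose and 0 fell, and Pttg1 was the exception. The median slope of the 46 was 0.91, whereas the median of all genes was -0.01.

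These calls depend on the ends of the range. Without C2, 32 of the 46 members rose, among 97 rising genes in all (0.788%). With both B1 and C2 left out, the libraries farthest from the median of Plk1, limma called no gene in either direction. A positive slope was still held by 45 of 46 members, compared with 48.6% of all genes, and the median slope of the members was 1.03. In this limma fit 44 members had an unadjusted p under 0.05, which 12.6% of all genes had. Without A1 and C2, which hold the highest Mettl3 and the highest member levels, 22 members rose (0.414% of all genes). With the prefix as a term, over the 8 libraries of prefixes B and C, 37 members rose among 122 genes (0.989%).

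**Figure D2:**
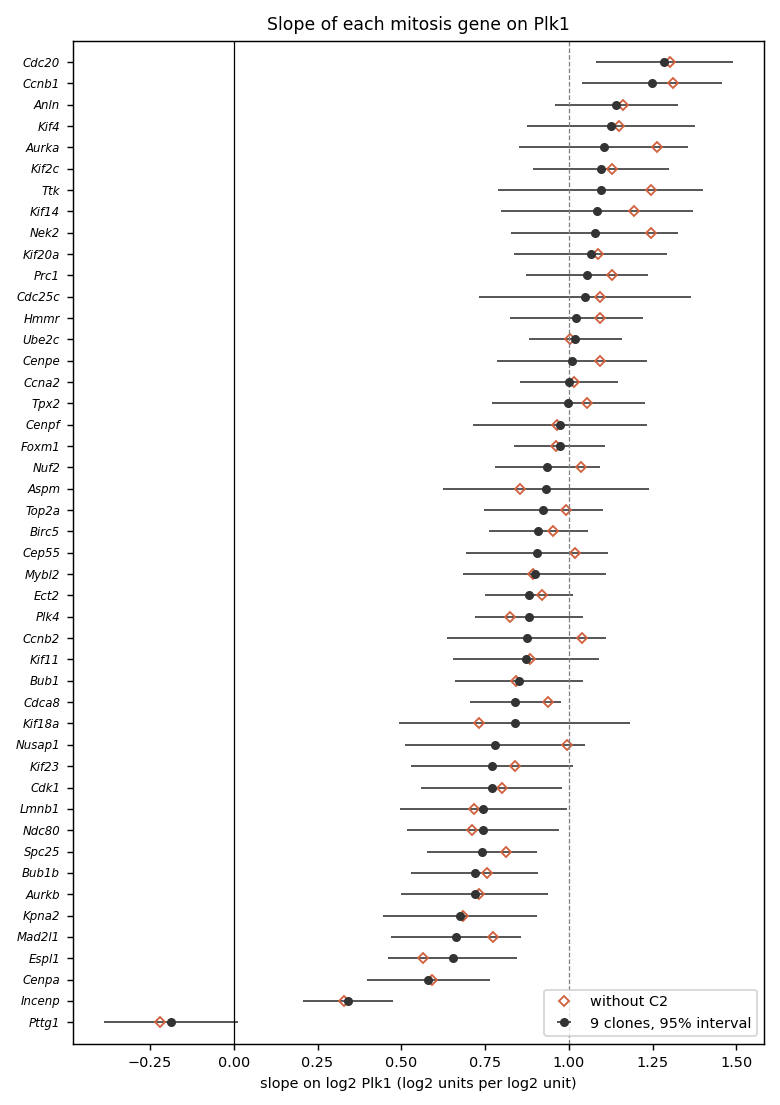
Points give the slope of each of 46 genes on Plk1 over 9 libraries in log2 units per log2 unit, lines its 95% interval, and open diamonds the slope without C2. The slopes run from -0.19 (Pttg1) to 1.28 (Cdc20), and the diamonds lie on the same side of 0 as the points.

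Among the mitotic kinases and cyclins, all 8 genes other than Plk1 rose with it, with a median slope of 1.02, and 6 did so without C2. Ccnb1 (ENSMUSG00000041431), cyclin B1, was lowest at 256 in B1, had a median of 607 and was highest at 1472 in C2. Its slope of 1.25 (95% interval 1.04 to 1.46, adjusted p = 0.00023) lay above 1, and among the members this was also so for Cdc20. Ccnb2, the other B-type cyclin, ran from 299 to 873 with a slope of 0.87 ± 0.10 (SE). Cdk1 (ENSMUSG00000019942), the kinase that both cyclins activate, moved over a narrower range. It was lowest at 705 in B1, with a median of 1125 and a highest value of 1919.9 in C2, and its slope was 0.77 (95% interval 0.56 to 0.98). Without C2 the adjusted p of Cdk1 was 0.053.

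Ccna2, cyclin A2, which acts from S phase into early mitosis, followed Plk1 with a slope of 0.999 ± 0.07 (SE), from 523 in B1 to 2107 in C2. Aurka (ENSMUSG00000027496), the centrosomal Aurora kinase, was at 202, 216 and 211 in B1, B3 and B4 and at 766 in C2, with a slope of 1.10 (adjusted p = 0.0009). Nek2, a kinase of centrosome separation, ran from 182 to 669.6 and had a slope of 1.08. Both had their lowest values in the same 3 prefix B libraries. Plk4, the kinase of centriole duplication, ran from 239 to 821 with a slope of 0.88 ± 0.07 (SE), and Cdc25c, the phosphatase that activates CDK1, from 54.3 to 226 with a slope of 1.05 ± 0.14 (SE). Cdc25c had the lowest mean of the members, 111 ± 54.1 (SD, n = 9), and its adjusted p was 0.077 without C2.

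**Figure D3:**
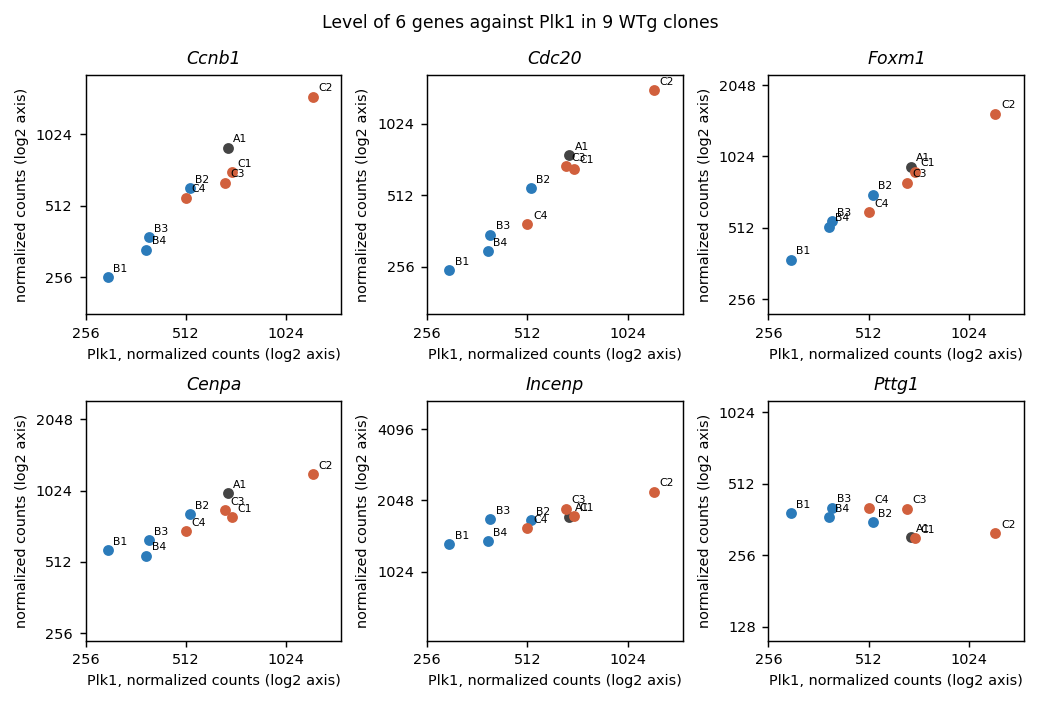
Level of 6 genes against Plk1, both in normalized counts on log2 axes, with 1 point per library (A black, B blue, C red). Ccnb1, Cdc20 and Foxm1 rise along the whole range of Plk1, Cenpa and Incenp rise less steeply, and Pttg1 does not rise.

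The spindle checkpoint genes rose with Plk1 together with the gene that the checkpoint restrains. Cdc20 (ENSMUSG00000006398), the activator of the anaphase-promoting complex, was lowest at 247 in B1, with a median of 547 and a highest value of 1416 in C2. Its slope of 1.28 (95% interval 1.08 to 1.49, adjusted p = 0.00022) was the steepest of the members. Ttk, the kinase known as MPS1 that recruits the checkpoint to kinetochores, went from 67.4 to 328 with a slope of 1.09 ± 0.14 (SE). Bub1 and Bub1b, a checkpoint kinase and its relative BUBR1, had slopes of 0.85 and 0.72, and Mad2l1, the MAD2 protein that holds CDC20, had a slope of 0.66 (95% interval 0.47 to 0.86). Bub1 ran from 256 to 769.5, Bub1b from 438 to 1152 and Mad2l1 from 379 to 916. The intervals of Bub1, Bub1b and Mad2l1 lie under that of Cdc20, and these slopes were not tested against each other.

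Downstream of the checkpoint the members separated. Ube2c, the ubiquitin-conjugating enzyme of the anaphase-promoting complex, followed Plk1 closely, from 344 in B1 to 1324 in C2, with a slope of 1.02 ± 0.06 (SE). Espl1 (ENSMUSG00000058290), separase, the protease that cuts cohesin, was lowest at 317 in B1, with a median of 478 and a highest value of 841 in C2. Its slope was 0.65 (adjusted p = 0.0037), and the adjusted p without C2 was 0.098. Pttg1 (ENSMUSG00000020415) is securin, which holds separase inactive until anaphase. It was at 304 in A1, at 386, 353, 407 and 371 in B1 to B4, and at 301, 317, 402 and 403 in C1 to C4. The highest value was 1.35 times the lowest, and C2, the highest library for every other member, was the third lowest for Pttg1. The slope of Pttg1 on Plk1 was -0.19 (95% interval -0.39 to 0.01, adjusted p = 0.18). Its level in B1 was higher than in C2, with a ratio of C2 to B1 of 0.822.

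In the chromosomal passenger complex, which corrects wrong attachments and later directs cytokinesis, the fitted slopes ran from 0.34 to 0.91. Birc5, survivin, and Cdca8, borealin, had slopes of 0.91 and 0.84 and were called with every library left out in turn. Aurkb, the kinase of the complex, ran from 251 in B1 to 685 in C2 with a slope of 0.72 (95% interval 0.50 to 0.94), and its adjusted p was 0.082 without C2. Incenp (ENSMUSG00000024660), the scaffold that binds the kinase, was lowest at 1339.9 in B1, with a median of 1709 and a highest value of 2231 in C2. Its slope of 0.34 (95% interval 0.21 to 0.48, adjusted p = 0.014) was the smallest of the members that rose, and its adjusted p was 0.14 without C2. The interval of Incenp does not reach those of the other 3 subunits, and these slopes were not tested against each other.

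All 6 kinetochore and centromere genes rose, with a median slope of 0.84, and 3 did so without C2. Cenpe, the kinesin that carries chromosomes to the spindle equator, and Cenpf, a protein of the outer kinetochore, had slopes of 1.01 and 0.97. Nuf2, Ndc80 and Spc25, subunits of the NDC80 complex that grips microtubules, had slopes of 0.94, 0.74 and 0.74, with levels of 214 to 773, 207 to 585 and 224 to 627. Cenpa (ENSMUSG00000029177), the histone H3 variant that marks centromeres, was lowest at 544 in B4, with a median of 792 and a highest value of 1202 in C2. It moved less than the others, with a slope of 0.58 (95% interval 0.40 to 0.76), and its adjusted p was 0.0054 with all libraries and 0.091 without C2.

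The spindle motors and assembly factors also rose, 10 of 10 with all libraries and 7 of 10 without C2. Kif4, a chromosome-bound kinesin, and Kif2c, a kinesin that takes microtubules apart at centromeres, had slopes of 1.13 and 1.10 and ran from 208 to 879 and from 171 to 718. Tpx2, which activates Aurora A on the spindle, was at 707 in B1 and 2552 in C2 with a slope of 0.998, and Kif11, the kinesin that pushes the poles apart, ran from 428 to 1383 with a slope of 0.87. Kif14, a mitotic kinesin, went from 99.3 to 492 and Hmmr, a spindle-associated protein, from 304 to 1211, with slopes of 1.08 and 1.02. Kpna2, an importin that also binds spindle factors, changed less, from 1652 to 4157, with a slope of 0.67 (95% interval 0.45 to 0.90). Nusap1, which bundles microtubules, had a slope of 0.78 ± 0.12 (SE). Aspm, a protein of the spindle poles, had a slope of 0.93 ± 0.14 (SE), and its adjusted p was 0.12 without C2. Kif18a, a kinesin that aligns chromosomes, had a slope of 0.84 ± 0.15 (SE). Kif18a was among the members with the fewest reads, 62.2 to 222 normalized counts, and its adjusted p was 0.016 with all libraries and 0.16 without C2.

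All 6 genes of the central spindle and cytokinesis rose, with a median slope of 0.98, and 5 did so without C2. Anln, anillin, the scaffold of the contractile ring, went from 611 in B1 to 2955 in C2 with a slope of 1.14 (adjusted p = 0.00022). Prc1, which bundles the microtubules of the central spindle, and Kif20a, a kinesin of the same structure, had slopes of 1.05 and 1.06. Ect2, which activates RhoA for furrowing, followed with 0.88 ± 0.06 (SE), Cep55, a protein of the midbody, with 0.91 ± 0.09 (SE), and Kif23, the kinesin of the centralspindlin complex, with 0.77 ± 0.11 (SE). Kif23 was the member of this group that was not called without C2 (adjusted p = 0.065).

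Of the transcription factors, Foxm1 (ENSMUSG00000001517) was lowest at 375 in B1, with a median of 706 and a highest value of 1549.9 in C2. Its slope was 0.97 ± 0.06 (SE) with an adjusted p of 0.00021, and 0.96 without C2. Mybl2, which encodes B-MYB, ran from 127 to 449.5 with a slope of 0.90 ± 0.09 (SE). Top2a, the topoisomerase that untangles chromosomes and the member with the highest mean (2947 ± 1215, SD, n = 9), ran from 1508 to 5437 with a slope of 0.92, and Lmnb1, lamin B1 of the nuclear envelope, from 407 to 1317 with a slope of 0.74. Lmnb1 had an adjusted p of 0.12 without C2. Over all 46 members, the 95% interval of the slope held 1 for 31, lay below 1 for 13 and above 1 for 2 (Ccnb1 and Cdc20).

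The closeness to Plk1 reached beyond the members but was uneven among cell cycle genes. In a list of other spindle, centrosome and cytokinesis genes, 23 of 24 rose with Plk1 and 14 did so without C2, with a median slope of 0.86. Kif15, Ckap2 and Dlgap5 had slopes of 0.89, 1.08 and 1.06, and Cep152, a centriole protein, had 0.14 (adjusted p = 0.42). Of 33 other kinetochore and checkpoint genes tested, 22 rose and 5 did so without C2. Knl1, the kinetochore scaffold for BUB1, had a slope of 0.95, whereas Bub3, the partner of BUB1, had 0.18 (adjusted p = 0.086) and Mis12, an inner scaffold, had 0.01. Among 11 regulators of mitotic entry and exit, 7 rose, including Mastl, the Greatwall kinase (0.96), and Wee1, the kinase that restrains CDK1 (0.50), and 3 did so without C2.

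The anaphase-promoting complex itself changed less than its activator Cdc20. Of 15 genes for the complex and its regulators, 3 rose and 0 fell, with a median slope of 0.11, and 0 rose without C2. These were Ube2s, a ubiquitin-conjugating enzyme of the complex (0.46), Fbxo5, the inhibitor EMI1 (0.61), and Cdc16, a subunit (0.27). Fzr1, the activator CDH1 that takes over from CDC20, had a slope of 0.06 (adjusted p = 0.48). In the list of condensin and cohesin genes, 7 of 19 rose, and 4 did so without C2. These were the condensin genes Ncapd2, Smc2, Ncaph, Ncapg and Smc4, with slopes of 0.77, 0.71, 0.73, 0.85 and 0.50, and the cohesin regulators Esco2 (0.63) and Cdca5, sororin (0.59). The condensin genes Ncapd3, Ncaph2 and Ncapg2 had slopes of 0.26, 0.09 and -0.09, with adjusted p-values of 0.10, 0.32 and 0.67, and the cohesin subunits Smc1a and Smc3 had slopes of 0.16 and 0.15 (adjusted p = 0.18 and 0.15).

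Genes of G1/S and DNA replication rose in 11 of 14 cases, with a median slope of 0.47, and 2 of them, Ccne2 (0.90) and Rrm2 (1.13), did so without C2. Of 14 tested genes of the MuvB complex, the E2F factors and the pocket proteins, 5 rose, among them E2f7 (0.76) and E2f8 (0.87), and E2f8 did so without C2. Rbl2, the pocket protein p130 that takes part in repression in resting cells, fell with a slope of -0.29 (adjusted p = 0.029). Of 6 CDK inhibitors tested, Cdkn2d rose (0.47, adjusted p = 0.023), and Cdkn1a, the inhibitor p21, had a slope of 0.05 (adjusted p = 0.80). The other tested Polo-like kinases were Plk3 (0.27, adjusted p = 0.047) and Plk2 (0.56, adjusted p = 0.25). Of 10 housekeeping genes, Rpl13a rose (0.30, adjusted p = 0.038) and 0 fell, with a median slope of 0.01. Rbl2, Cdkn2d, Plk3 and Rpl13a did not pass the test without C2.

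The genes outside the member list with the smallest p among those rising with Plk1 were Knl1, Diaph3, Ncapd2, Mki67, which encodes the proliferation marker Ki-67, and Ccne2, with slopes of 0.77 to 1.06. Among those falling, the smallest p belonged to Ccpg1, Sqor, Tmem175, F630028O10Rik and Klhl24, with slopes of -0.52, -0.34, -0.47, -1.19 and -0.62. Without C2, the adjusted p of Ccpg1 was 0.037 and that of Klhl24 was 0.12.

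Macrophage and fibroblast markers mostly had slopes on Plk1 of opposite sign. All 15 macrophage markers tested had a negative slope on Plk1, with a median of -0.42. With all libraries, 7 of them (Adgre1, C1qb, C1qc, Cd68, Csf1r, Mertk and Tyrobp) fell at an adjusted p under 0.05. Without C2, 0 did, in a fit where only 3 of 12305 genes fell. In C2, the highest library for the members, the macrophage markers had their lowest sum and the fibroblast markers their highest. Lyz2 dominated the macrophage sum, and without it the other 15 markers ran from 215792 in C2 to 373154 in B3, with 236525 in C1, 255609 in A1 and 277245 in C3. Of the 16 markers, 14 were highest in a prefix B library and 7 were lowest in C2. Of all genes, 10.9%, 4.70%, 18.8% and 5.80% were highest in B1 to B4, and 18.9% were lowest in C2. Of 12 fibroblast markers tested, 11 had a positive slope, with a median of 0.75, and Dcn had -1.52 (adjusted p = 0.063). Col1a1 (0.94) and Col5a1 (0.98) rose, and 0 did so without C2. None of the 4 acinar, 2 epithelial and 1 endothelial markers tested was called by limma. The part of these cell types in the member levels was not tested.

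**Figure D4:**
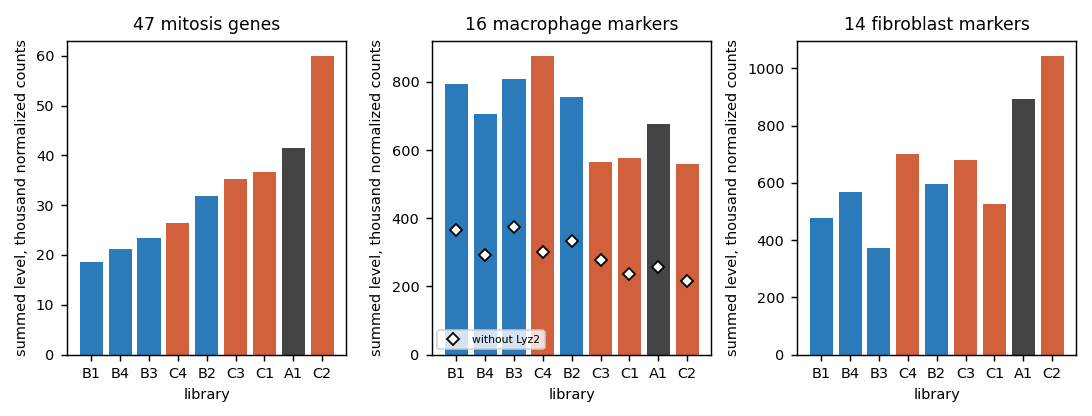
Bars give the summed level of the 47 mitosis genes, of 16 macrophage markers and of 14 fibroblast markers in each library, in normalized counts divided by 1000, with libraries in the same order in each panel. The mitosis genes rise from 18501 normalized counts in B1 to 60023 in C2, and the macrophage bar, which is highest in C4 because of Lyz2 (577311), is lowest in C2. Diamonds give the macrophage sum without Lyz2, which is highest in B3 and lowest in C2.

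The study asks whether Mettl3, an RNA methyltransferase subunit, acts on Plk1 and on mitotic genes, and Mettl3 varied among the clones. It was at 2184 normalized counts in A1 and between 468 and 621 in the other 8 libraries. Of the 4 m6A genes tested against Plk1, 0 were called in either direction, and the slope of Mettl3 was 0.09 (adjusted p = 0.89). In the fit against Mettl3, 238 of 12300 genes passed an adjusted p under 0.05 in either direction (1.93%), and 0 of the 47 members did. None of the members had an unadjusted p under 0.05 (limma), compared with 14.6% of all genes. On the recovered reads, limma's voom called 0 members, with 0.374% of all genes called. The slope of Plk1 on Mettl3 was 0.07 (95% interval -0.58 to 0.71), so neither a rise nor a fall could be told from 0. The slopes of the members ran from -0.12 (Espl1) to 0.28 (Kpna2), and 43 of 47 were positive, compared with 53.5% of all genes. Because the members move together, such counts are not independent. The fit rests on A1. Without that library the slope of Plk1 was -2.13 and that of Kpna2 was -1.01. In that fit 1 of the 47 slopes was positive, compared with 54.6% of all genes. There limma called 0 genes in all, with 11.9% of all genes and 0 members at an unadjusted p under 0.05. Over the same 8 libraries with the prefix as a term, the direction turned again. There 46 of 47 slopes were positive, compared with 56.3% of all genes. The median of the members was 1.49 instead of -1.66, and the slope of Plk1 was 1.24. Again limma called 0 genes, with 0 members and 2.25% of all genes at an unadjusted p under 0.05. No direction among these 8 libraries can therefore be given. In A1 the members together were second only to C2, and Mettl3 was lower in C2, at 490.1 normalized counts, than in B1, at 545.9.

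Between the prefixes, the members were higher in C than in B in 46 of 47 cases, compared with 47.1% of all genes. Their median difference was 0.75 on the log2 scale, compared with -0.02 for all genes. None of the members passed an adjusted p under 0.05, by limma or by voom, and 36 of 12332 genes did by limma (0.292%) and 0.178% by voom. At an unadjusted p under 0.05 there were 38 members, and 21.7% of all genes. Aurka had the smallest adjusted p of the members, 0.14, with a difference of 1.01 ± 0.28 (SE). Plk1 differed by 0.90 ± 0.27 (SE, adjusted p = 0.15). Its mean was 403 ± 93.1 (SD, n = 4) for prefix B and 779 ± 311 (SD, n = 4) for prefix C. Without C2 the median difference of the members was 0.52. Espl1 was the member whose prefixes did not overlap, with at most 478 in B and at least 481 in C, whereas prefix C lay above prefix B without overlap for 4.87% of all genes. Pttg1 differed by -0.10 ± 0.12 (SE, adjusted p = 0.62).

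**Figure D5:**
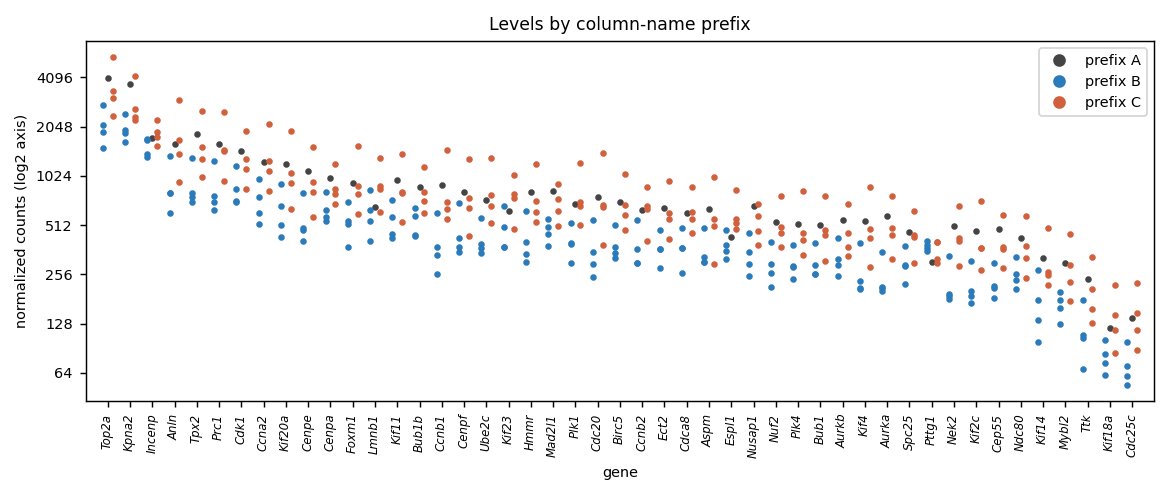
Level of each of the 47 genes in each library, in normalized counts on a log2 axis, with genes ordered by mean level and points colored by column-name prefix. The red points of prefix C reach above the blue points of prefix B for nearly every gene, and the lower red points lie among the blue ones.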

How the data were processed

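The authors deposited log2 values for 18049 genes, made per the submitters' processing notes with STAR 2.7.10, RSEM 1.3.3 and FastQC 0.11.9 on GRCm38, from stranded mRNA libraries of 9 MPC clones. The table also holds 6 columns of other studies, which were not used. The log2 and the authors' offset of 4 were undone to give normalized counts, and reads were recovered as whole multiples of the value of 1 read (100% of values under 1000 reads, within 0.1 reads). No column name gives a clone number, and the 9 libraries form 1 group. Even the most alike pair of libraries (B1 and B4, both of prefix B) had a chi-square of 24.1 for each degree of freedom (14316 genes). They were therefore not repeats of a single library, and each library was counted as its own sample. This does not show that the clones are independent. The same measure ran from 24.1 to 44.4 for pairs within prefix B and from 46.5 to 65.2 within prefix C. For pairs of a prefix B with a prefix C library it ran from 42.5 to 153. The authors' scaling was kept. Slopes and differences were fitted with limma 3.58.1 (lmFit, eBayes with a trend, R 4.3.3) on log2(normalized counts + 1) over genes whose mean reached 50. On this scale the slopes of low genes are understated. Benjamini-Hochberg adjustment was over all genes tested. The scripts were tested on simulated counts, with changes of 0.5 and 1 on the log2 scale. Unchanged genes made up 0.741% and 5.21% of limma's calls for Plk1, and 1.52% and 8.41% for prefix C against B. For Mettl3 they made up 9.68% and 11.5%. Of slopes or differences of 0.5, 67.3%, 84.4% and 32.7% were recovered for Plk1, Mettl3 and C against B. Alternatives were other scalings, pseudocounts, filters, no trend, voom on recovered reads, the prefix as a term, and leaving out libraries. Leaving out A1 and C2, or B1 and C2, was chosen after seeing the data. All 47 members may be named, with the genes of lists of related complexes, pathways and cell type markers and the 5 other genes of smallest p rising and falling with Plk1. The members and all lists were chosen with earlier results of these data known. Motifs were counted with Python 3.11.15 in RefSeq promoter windows of 300 bases. A count of protein motifs and levels per length were not made. Intervals are at 95%, and the floor of 3 reads covers counting error only.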

Additional observations from a re-analysis of the deposited data

Results flagged for a closer look

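In 12 of the 47 genes the highest library stood apart from the other 8 by Dixon's measure. This is the gap to the next highest library divided by the whole range, and it exceeded the 95% critical value for 9 libraries. It was taken on normalized counts without a log, where a high value stands farther apart than on the log2 scale of the fits. The measure was not taken on the log2 scale. If values were normally distributed without a log, about 1 in 20 groups would pass it by chance, which is 2.35 of 47. That distribution was not tested, and the 12 are not independent because the members move together. The measure was not taken for genes outside the members. Whether 12 of 47 is more than the share of all genes is therefore not known. The library was C2 in all 12. The measure was 0.563 for Plk1, at 1228 normalized counts in C2 and 705 in the next library, and 0.563 for Cdc20, at 1416 and 757. It was 0.552 for Ube2c, 0.541 for Anln, 0.537 for Espl1, 0.536 for Ccna2 and 0.530 for Foxm1. The remaining values were 0.519 for Aspm, 0.512 for Plk4, 0.506 for Cenpf, 0.501 for Bub1 and 0.501 for Kif4. Of the members without such a gap, Pttg1 was highest in B3, at 407 normalized counts, and the other 34 were highest in C2.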

How the results depend on the processing

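No slope of a member on Plk1 changed sign under any alternative. Of the 45 members that rose, all did so under the other scalings, pseudocounts and filters, without a trend and by voom, whereas 13 were no longer called without C2, 3 without B1, 8 with the prefix as a term, 23 without A1 and C2 (22 called) and 45 without B1 and C2 (0 called). With single libraries left out, 32 to 45 members rose, among 97 to 867 rising and 3 to 1092 falling genes. All rising genes numbered 122 with the prefix as a term, 51 without A1 and C2 and 0 without B1 and C2. All falling genes numbered 464 scaled to the total, 535 with no filter, 2 with the prefix as a term, and 0 without A1 and C2 as well as without B1 and C2. The cause of these losses was not tested, although leaving out libraries also leaves fewer samples. For Mettl3, the rising genes numbered 57 with no filter, 22 by voom and 0 both with the prefix as a term and without A1 and C2, and the falling genes 333 at a mean of at least 10, 362 with no filter, 24 by voom and 0 in the same pair of fits. With single libraries left out they ranged from 0 to 81 and from 0 to 259. With single libraries left out, the slope on Mettl3 ran from -2.13 (without A1) to 0.18 (without C2) for Plk1 and from -1.01 to 0.36 for Kpna2. Without A1 and C2 these slopes were -1.40 and -0.45, and the slope of Espl1 also turned (1.38) with the prefix as a term, where 46 of 47 members had a positive slope, whereas 1 of 47 did without A1. Between the prefixes, 11 genes were higher and 9 lower in C without a trend, 13 and 9 by voom, and 6 to 98 and 3 to 167 with single libraries left out, while 0 members were called in any of these fits. In the 150 bases before the start alone, TTTGAA stood in 28.2% of members and both motifs in 23.1%, compared with 10.5% and 3.13% of all genes. Member levels moved by less than 1 SD under both other scalings. No paired analysis was possible because the labels give the clones 1 group, with no second group to pair them with. The lowest count of any member was 43 reads, above the floor of 3 reads.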
